A study of Homo sapiens with 12 samples.

Results

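Cholesterol synthesis genes and targets of the transcription factor SREBP2 were described as a set of 28 genes, chosen by name out of the 35810 genes with a transcript in the files. By role the set holds 7 enzymes of the mevalonate arm, 3 enzymes from squalene to lanosterol, 8 enzymes after lanosterol, 6 genes of SREBP regulation and 4 genes of sterol uptake, transport and turnover. Low counts kept INSIG1 out of the test, so 27 of the 28 genes were among the 12821 genes tested.

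RNA was sequenced from HepG2, a human line grown from a liver tumour, in 4 groups of 3 libraries. The groups were wild type with DMSO, wild type with sorafenib, ARID1B-KO with DMSO and ARID1B-KO with sorafenib. Sorafenib, a kinase inhibitor used against liver cancer, was given at 5 µM for 48 h, and DMSO at 0.1% was its vehicle. ARID1B, a subunit of the SWI/SNF (BAF) chromatin remodelling complex, was knocked out with CRISPR/Cas9. All 4 groups were grown in the same serum-containing medium. Neither the number of knockout clones nor the place of the cut is in the labels. The design calls the replicates biological, and p-values measure the spread between these 3 libraries a group. In bulk RNA a change in every cell and a change in a share of the cells cannot be told apart.

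Libraries held 19739582 to 29398257 estimated counts, of which 6.75% to 12.27% fell on mitochondrially encoded genes. ARID1B itself was at 58.4 to 69.1 CPM (counts scaled to library size with TMM) in the 6 wild-type libraries and at 25.9 to 35.6 CPM in the 6 knockout libraries. Since the cut site is not given, the remaining reads do not check the protein. All 8 hepatocyte markers, ALB among them, were above 1 TPM (a level per transcript length, scaled to the same total in each library) in each group, and they summed to 65502 to 71120 TPM in wild type with DMSO, 89491 to 90890 in wild type with sorafenib, 86673 to 99358 in ARID1B-KO with DMSO and 119930 to 157221 in ARID1B-KO with sorafenib. That sum was carried by ALB, at group means of 32198, 44505, 56012 and 92463 TPM in this order, and the markers did not move alike: APOB was at 1559, 909, 1616 and 847.6, TTR at 763, 390, 458 and 369, and FGB at 1183, 3483, 85.7 and 222 TPM. Among markers of other cells, all 5 fibroblast genes stayed under 1 TPM and PTPRC, which defines leukocytes, was at 0 in all 12 libraries. The immune list's summed level, 4141 to 5134, 965 to 1135, 2325 to 2832 and 584.8 to 635 TPM in the same order of groups, was carried by LYZ. Endothelial markers summed to at most 2.69 TPM. The part of these marker levels in the results was not tested.

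Cells make cholesterol from acetyl-CoA by way of mevalonate, farnesyl pyrophosphate, squalene and lanosterol. When sterol in the endoplasmic reticulum is low, SCAP carries SREBP2 to the Golgi, where proteases free its N-terminal part to enter the nucleus and switch on these enzymes. When sterol is high, the INSIG proteins hold SCAP and SREBP2 back. In hepatocytes the pathway supplies membranes, lipoproteins and bile acids.

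SREBP2 binds sterol regulatory elements together with the general factors NF-Y and Sp1, so the start regions of the set were searched for the letters of each. RefSeq windows on GRCh38.p14, from 250 bases before to 50 bases after a start site, were matched for 25 of the 28 genes, all but SQLE, FDFT1 and ACAT2. Both strands were searched for TCACNCCAC (a core of the sterol regulatory element), CCAAT (the NF-Y box) and GGGCGG (the Sp1 box). None of these holds another within its letters, though neighbouring matches can share letters. CCAAT stood in the windows of 20 of 25 genes (80%), against 39.7% of the 27305 genes with a window. GGGCGG stood in 23 of 25 (92%), against 48.3% of genes. The sterol element core stood in 1 of 25 (4%), in SREBF2, against 1.39% of genes. These are matches of letters and no measure of binding, and the absence of a match says only that those letters are not in the window. The genes with a window were not limited to the 12821 genes tested here. Shares among expressed genes were not counted, so the contrast cannot be read as particular to this set.

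The 250 bases before the start site of 5 genes are shown, chosen as follows. SREBF2 carries the one sterol element core. HMGCS1 and SPRING1 are the 2 genes whose sorafenib response was called different between genotypes in the main fit. Those calls were lost in 16 and 3 of 20 other settings. MSMO1 and TMEM97 hold 4 and 3 CCAAT boxes. The sequences run 5′ to 3′ on the strand of the gene, with the sterol element core and the CCAAT boxes (ATTGG where the box is on the other strand) in capitals. Their positions are chr22:41832855-41833104 (+ strand), chr5:43313413-43313662 (- strand), chr12:116738070-116738319 (- strand), chr4:165327419-165327668 (+ strand) and chr17:28318950-28319199 (+ strand). HMGCS1 has a second RefSeq start window, not printed, whose 250 bases at chr5:43313182-43313431 hold 0 CCAAT boxes.
SREBF2: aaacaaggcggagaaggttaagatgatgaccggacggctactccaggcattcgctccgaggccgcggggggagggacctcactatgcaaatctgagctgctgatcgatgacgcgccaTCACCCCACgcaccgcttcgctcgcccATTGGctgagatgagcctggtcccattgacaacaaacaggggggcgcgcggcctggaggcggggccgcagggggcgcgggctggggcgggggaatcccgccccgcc
HMGCS1: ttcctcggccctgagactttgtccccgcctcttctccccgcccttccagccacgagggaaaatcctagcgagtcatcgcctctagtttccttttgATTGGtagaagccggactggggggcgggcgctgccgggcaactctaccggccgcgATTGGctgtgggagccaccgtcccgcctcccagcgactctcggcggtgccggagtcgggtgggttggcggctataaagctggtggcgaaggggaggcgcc
SPRING1: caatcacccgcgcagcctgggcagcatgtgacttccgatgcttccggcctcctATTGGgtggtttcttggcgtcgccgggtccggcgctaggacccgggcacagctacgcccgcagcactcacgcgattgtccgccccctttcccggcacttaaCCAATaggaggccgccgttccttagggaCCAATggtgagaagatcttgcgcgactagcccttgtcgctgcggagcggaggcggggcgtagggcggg
MSMO1: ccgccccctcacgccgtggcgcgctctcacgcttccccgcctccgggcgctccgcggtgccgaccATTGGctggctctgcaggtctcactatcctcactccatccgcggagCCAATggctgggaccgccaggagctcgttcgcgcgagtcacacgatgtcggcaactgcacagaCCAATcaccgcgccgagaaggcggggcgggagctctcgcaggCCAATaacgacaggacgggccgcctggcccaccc
TMEM97: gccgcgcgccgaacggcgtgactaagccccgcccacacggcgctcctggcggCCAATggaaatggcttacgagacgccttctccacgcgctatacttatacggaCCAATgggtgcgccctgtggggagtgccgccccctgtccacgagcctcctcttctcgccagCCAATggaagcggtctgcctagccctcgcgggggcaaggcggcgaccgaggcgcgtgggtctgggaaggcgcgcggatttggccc

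The level of the set as a whole was lowest in wild type with DMSO and highest in ARID1B-KO with sorafenib. Its summed TPM was 2810, 2833 and 2939 TPM in wild type with DMSO, 4074, 4194 and 4161 in wild type with sorafenib, 4006, 4186 and 4132 in ARID1B-KO with DMSO, and 4901, 5212 and 4891 in ARID1B-KO with sorafenib. Every library of the 3 other groups was above every library of wild type with DMSO. Wild type with sorafenib and ARID1B-KO with DMSO overlapped, at 4143 ± 61.9 and 4108 ± 92.1 TPM (mean ± SD, n = 3), and ARID1B-KO with sorafenib lay above both, at 5001 ± 182 TPM. That overlap depended on the scale. As a share of matched counts the set was at 0.5422% to 0.5503% in wild type with sorafenib and at 0.5305% to 0.5402% in ARID1B-KO with DMSO, without overlap. No p is given for these sums.

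In wild-type cells sorafenib raised 21 of the 27 genes tested and lowered 1, INSIG2. Each comparison was tested with edgeR's quasi-likelihood test, and a gene was called at a Benjamini-Hochberg adjusted p under 0.05 over all genes tested. Of all genes tested 35.4% were called in this comparison, 17.5% as higher and 18% as lower. The median log2 fold change of the 27 genes was 0.59, against -0.01 over all genes. TM7SF2 (1.13 ± 0.16, adjusted p = 0.000188), HMGCS1 (1.01 ± 0.10, adjusted p = 8.87e-06) and MVK (1.00 ± 0.11, adjusted p = 2.28e-05) had the 3 highest log2 fold changes (± SE) among the genes called. These are changes in counts summed over all transcripts of a gene, and little of the TM7SF2 sum lay on its 1722-base coding transcript. The libraries of both groups did not overlap for 24 of 27 genes, 23 of them higher with sorafenib, against 25.2% of all genes not overlapping in that direction and 25.6% in the other.

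In ARID1B-KO cells sorafenib raised 16 of the 27 genes and lowered none of them by edgeR at an adjusted p under 0.05, with 0 also at an unadjusted p under 0.05 and 0 by DESeq2. Of all genes tested 46.7% were called, 23% as higher and 23.7% as lower. The median log2 fold change was 0.37, against 0.01 over all genes. LSS (1.59 ± 0.47, adjusted p = 0.0216), TM7SF2 (0.79 ± 0.16, adjusted p = 0.00152) and NPC1L1 (0.73 ± 0.15, adjusted p = 0.00156) had the highest values. The LSS value is uncertain, because the long transcript LSS-202 held counts in only some knockout libraries. Groups did not overlap for 12 genes, all higher, against 25.8% of all genes higher and 27.1% lower. With only the 2 groups compared in the fit, 10 genes were called in place of 16.

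Knockout and wild-type cells were compared first without drug. In DMSO 17 genes were higher in ARID1B-KO and 3 were lower, the latter INSIG2, NPC1L1 and MYLIP. Over all genes tested 27.8% were called, 14.3% as higher and 13.5% as lower. The median log2 fold change was 0.53, against 0.01 over all genes. Among genes called higher, MVK (1.03 ± 0.11, adjusted p = 2.68e-05), MSMO1 (0.97 ± 0.13, adjusted p = 0.000121) and IDI1 (0.96 ± 0.13, adjusted p = 0.000145) led, and MYLIP fell furthest (-1.58 ± 0.15, adjusted p = 5.92e-06). Groups did not overlap for 19 genes higher and 4 lower in ARID1B-KO, against 21.8% and 20.5% of all genes. This comparison shares its wild-type DMSO libraries with the sorafenib comparison in wild type, so the 2 are not independent.

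With sorafenib in both genotypes, 9 genes were higher in ARID1B-KO and 3 were lower, SPRING1, NPC1L1 and MYLIP. The background was 27% of genes called, 13.2% as higher and 13.8% as lower, and the median log2 fold change of the set was 0.23, against -0.0043 over all genes. Genes higher in ARID1B-KO under both treatments numbered 8: MVK, MVD, IDI1, MSMO1, HSD17B7, EBP, SC5D and TMEM97. Another 8 were called higher in DMSO and not called with sorafenib: HMGCS1, ACAT2, FDFT1, SQLE, CYP51A1, TM7SF2, NSDHL and DHCR7. In DMSO the calls of SQLE (0.43, adjusted p = 0.0278) and CYP51A1 (0.46, adjusted p = 0.0183) were lost in 5 and 4 of 21 alternatives. Each of those alternatives left out 1 library. Whether a gene's genotype difference itself differed by treatment was tested as the genotype by treatment interaction, which among these 8 only HMGCS1 passed. Groups did not overlap for 11 genes higher and 3 lower, against 20.5% and 22.2% of all genes. With an offset for the transcripts' effective length, 3 genes in place of 9 were higher and 1 in place of 3 lower.

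**Figure D1:**
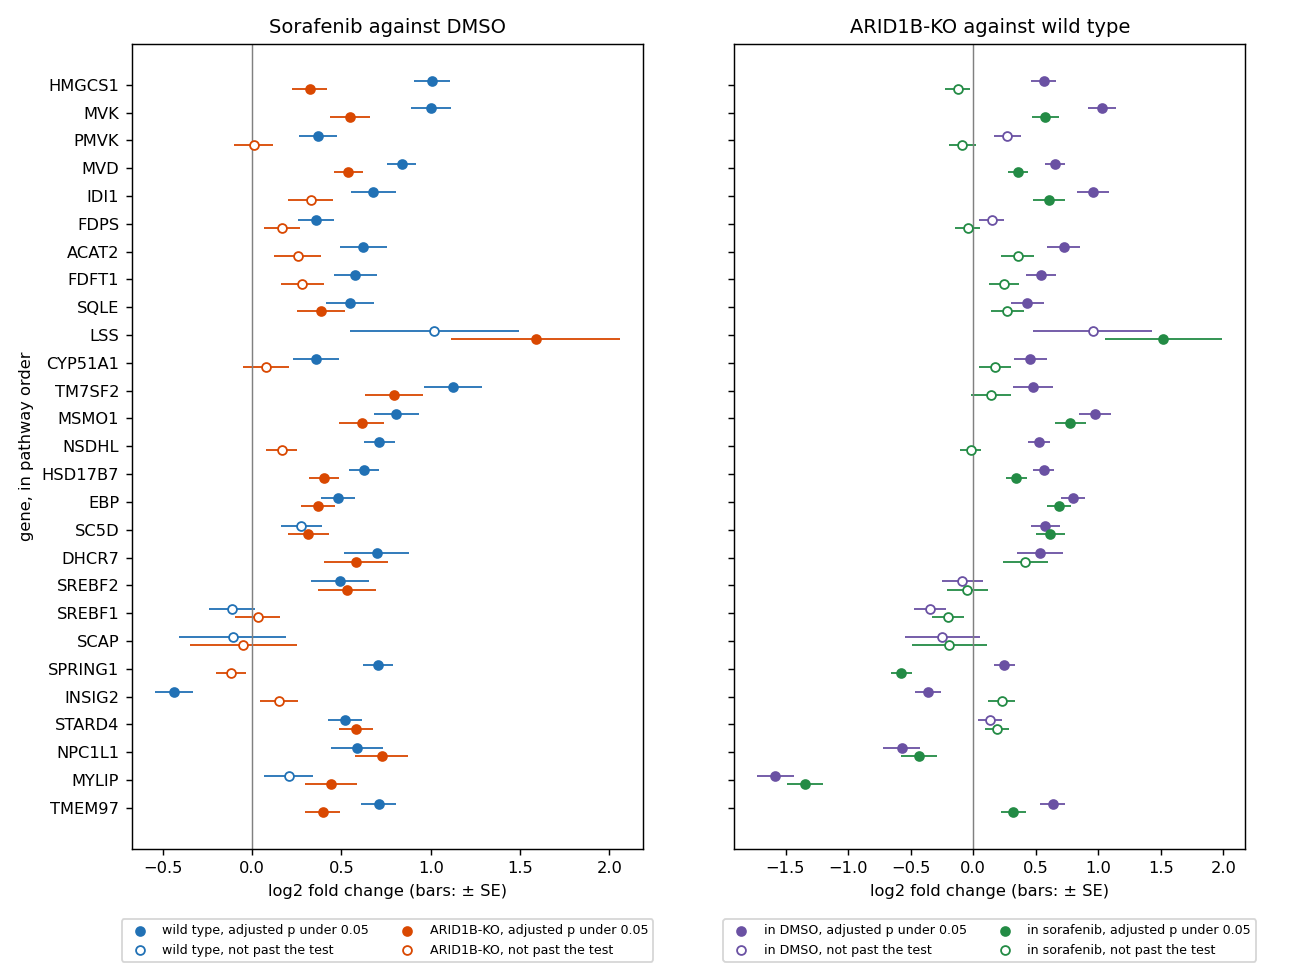
Log2 fold change (x axis, bars ± SE) of the 27 genes tested (y axis, in pathway order) for sorafenib against DMSO in each genotype (left) and for ARID1B-KO against wild type in DMSO and in sorafenib (right); filled points passed an adjusted p under 0.05. Most synthesis genes lie right of 0 in each comparison, with wild-type sorafenib responses up to 1.13 (TM7SF2), while MYLIP lies left at -1.58 and -1.34 in the genotype comparisons.

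The mevalonate arm turns acetyl-CoA into the isoprenoid farnesyl pyrophosphate. All 7 of its genes rose with sorafenib in wild type and 3 in ARID1B-KO, while 5 were higher in ARID1B-KO with DMSO and 3 with sorafenib, where 17.5%, 23%, 14.3% and 13.2% of all genes were called higher. ACAT2 makes acetoacetyl-CoA, the first step, and HMGCS1 condenses it to HMG-CoA. The level of HMGCS1 was 274.5, 273.5 and 237 CPM in wild type with DMSO, 567.5, 511 and 499.8 in wild type with sorafenib, 370.2, 378 and 411 in ARID1B-KO with DMSO and 442, 483 and 523 in ARID1B-KO with sorafenib. Sorafenib libraries were above the DMSO libraries in both genotypes, the knockout libraries lay above the wild-type ones in DMSO, and the genotypes overlapped with sorafenib. Its log2 fold change with sorafenib was 1.01 ± 0.10 in wild type and 0.32 ± 0.10 (adjusted p = 0.0183) in ARID1B-KO, and its genotype difference was 0.56 ± 0.10 (adjusted p = 0.00125) in DMSO and -0.12 ± 0.10 (adjusted p = 0.395) with sorafenib.

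Mevalonate kinase, MVK, phosphorylates mevalonate, and was at 36.4, 36.7 and 33.5 CPM in wild type with DMSO, 71.1, 65.7 and 76.8 in wild type with sorafenib, 62.3, 86.7 and 68.6 in ARID1B-KO with DMSO and 104, 113 and 101 in ARID1B-KO with sorafenib. Neither genotype's treatment groups overlapped, and wild type with sorafenib overlapped ARID1B-KO with DMSO. The highest group was ARID1B-KO with sorafenib, 0.58 ± 0.11 (adjusted p = 0.00202) above wild type with sorafenib on the log2 scale, a call lost with the length offset (0.38, adjusted p = 0.098). Its exons overlap those of MMAB, and whether the quantification used strand is not stated in the labels. PMVK, the next kinase, was the lowest of the arm, at 8.43 to 12.5 CPM, and rose with sorafenib in wild type (0.37 ± 0.11, adjusted p = 0.0171), a call lost without wild type with DMSO replicate 2 (adjusted p = 0.0642) or wild type with sorafenib replicate 1 (adjusted p = 0.0733). The PMVK value was 0.27 ± 0.11 (adjusted p = 0.0777) for genotype in DMSO, where the groups did not overlap, and the interaction was not called (adjusted p = 0.273). MVD, which makes isopentenyl pyrophosphate, was at 119, 121 and 109.7 CPM in wild type with DMSO, 197, 219 and 208 in wild type with sorafenib, 172, 181 and 198 in ARID1B-KO with DMSO and 270.4, 268 and 262 in ARID1B-KO with sorafenib, so that no 2 libraries of different treatment overlapped within a genotype. It rose by 0.84 ± 0.08 (adjusted p = 7.16e-06) in wild type and by 0.54 ± 0.08 (adjusted p = 0.000151) in ARID1B-KO.

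IDI1, the isomerase that makes dimethylallyl pyrophosphate, was at 205, 166 and 153 CPM in wild type with DMSO, 306, 245 and 288 in wild type with sorafenib, 329, 324 and 364.5 in ARID1B-KO with DMSO and 374, 462 and 440.2 in ARID1B-KO with sorafenib. All 6 knockout libraries were above all 6 wild-type libraries, and the log2 differences were 0.96 ± 0.13 (adjusted p = 0.000145) in DMSO and 0.60 ± 0.13 (adjusted p = 0.0037) with sorafenib. Sorafenib raised IDI1 by 0.68 (adjusted p = 0.00122) in wild type. In ARID1B-KO the value was 0.33 (adjusted p = 0.0501) and not called, though the groups did not overlap and 8 of 21 alternatives called it. FDPS, which makes farnesyl pyrophosphate, was at 197 to 296 CPM and called with sorafenib in wild type (0.36 ± 0.10, adjusted p = 0.0143), a call lost with the length offset (adjusted p = 0.199) and without wild type with DMSO replicate 3 or wild type with sorafenib replicate 1. Salmon moved FDPS counts between transcripts from library to library: FDPS-206 held 0 counts in 6 libraries and 856 to 2356 in the others. ACAT2 was higher in ARID1B-KO with DMSO by 0.72 ± 0.13 (adjusted p = 0.00141), and not called with sorafenib (0.36 ± 0.13, adjusted p = 0.0605). Exons of ACAT2 overlap those of SOD2 and TCP1.

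Squalene synthase (FDFT1) joins farnesyl units, squalene epoxidase (SQLE) oxidizes the product, and lanosterol synthase (LSS) closes the rings. FDFT1 was at 169.6, 141 and 133 CPM in wild type with DMSO, 226, 217 and 219 in wild type with sorafenib, 209, 196 and 241 in ARID1B-KO with DMSO and 222, 276 and 287.5 in ARID1B-KO with sorafenib. Sorafenib raised it by 0.58 ± 0.12 (adjusted p = 0.00242) in wild type, and the value in ARID1B-KO was 0.28 ± 0.12 (adjusted p = 0.0726). SQLE was at 414, 421.5 and 402 CPM in wild type with DMSO, 619.8, 627 and 562.5 in wild type with sorafenib, 635, 563 and 474.5 in ARID1B-KO with DMSO and 845, 743 and 599 in ARID1B-KO with sorafenib, and its knockout libraries spread widely, from 474.5 to 635 CPM with DMSO and from 599 to 845 with sorafenib. Both sorafenib responses of SQLE were called, at 0.55 ± 0.13 (adjusted p = 0.00628) in wild type and 0.39 ± 0.13 (adjusted p = 0.0297) in ARID1B-KO, the latter lost without replicate 2 or 3 of ARID1B-KO with DMSO or replicate 1 or 2 of ARID1B-KO with sorafenib.

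The gene-level counts of LSS were higher in the 3 knockout libraries where the long transcript LSS-202 held counts than in the others of the same group. LSS was at 26.3, 40.1 and 38.6 CPM in wild type with DMSO, 60.7, 85.1 and 67.02 in wild type with sorafenib, 115, 46.7 and 41.4 in ARID1B-KO with DMSO and 99.9, 283 and 228 in ARID1B-KO with sorafenib, so that its knockout libraries spanned 41.4 to 115 CPM with DMSO. In 3 libraries, ARID1B-KO with DMSO replicate 1 and ARID1B-KO with sorafenib replicates 2 and 3, the 4886-base transcript LSS-202 held 1347, 4837 and 2340 counts and the 853-base transcript LSS-204 held 0. In the 9 other libraries LSS-202 held 0 and LSS-204 held 326 to 938. The LSS-202 counts were thus above any LSS-204 count, and where the added counts came from was not tested. Per length the level was 18.0, 19.7 and 21.8 TPM in wild type with DMSO and 41.1, 54.7 and 41.8 TPM with sorafenib, and 18.2, 42.0 and 38.0 TPM in ARID1B-KO with DMSO and 49.8, 49.99 and 45.2 TPM with sorafenib. With the length offset the sorafenib response of LSS in wild type was 1.27 ± 0.24 (adjusted p = 0.00276), in place of 1.02 ± 0.47 (adjusted p = 0.128), and the genotype difference with sorafenib was 0.07 ± 0.23, in place of 1.52 ± 0.47 (adjusted p = 0.0411).

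**Figure D2:**
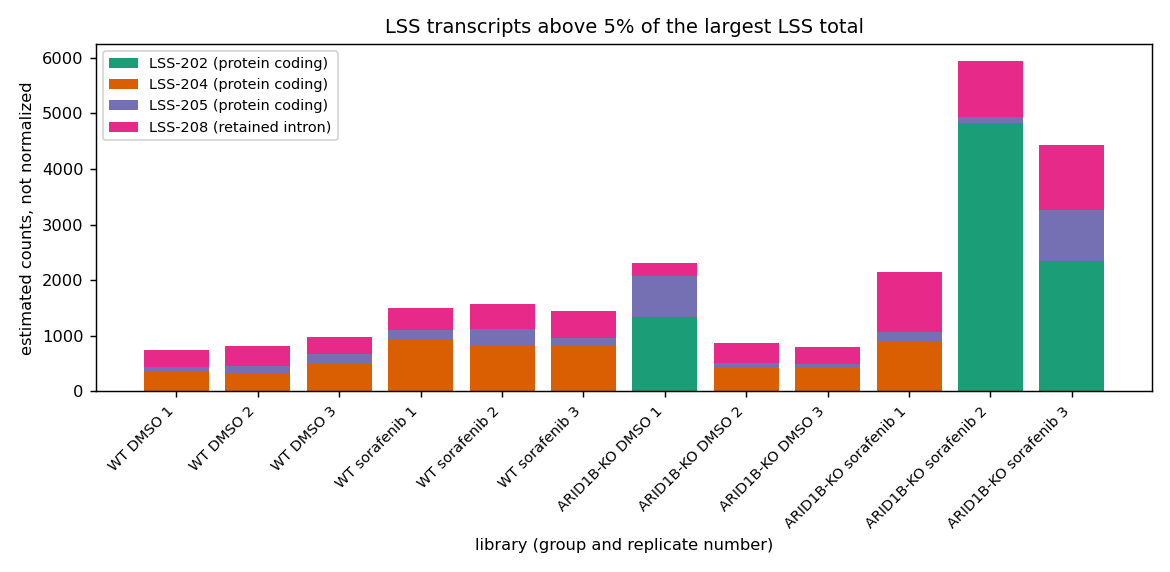
Estimated counts (y axis, not normalized) of the 4 LSS transcripts that reached 5% of the largest LSS total, stacked for each of the 12 libraries (x axis). LSS-202 appears in 3 knockout libraries, with 1347, 4837 and 2340 counts, and in each of them LSS-204 is at 0.

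Enzymes after lanosterol remove methyl groups and move double bonds. Of these 8 genes, 7 rose with sorafenib in wild type and 6 in ARID1B-KO, against 17.5% and 23% of all genes. In ARID1B-KO 8 were higher with DMSO and 4 with sorafenib, against 14.3% and 13.2%. The genotype calls of TM7SF2, NSDHL, SC5D and DHCR7 in DMSO were lost with the length offset. CYP51A1, the lanosterol 14-alpha-demethylase, rose in wild type (0.36 ± 0.13, adjusted p = 0.0454), a call lost in 12 of 21 alternatives, among them the fit without filtering on low counts (adjusted p = 0.0591) and each wild-type library left out, and was at 0.08 ± 0.13 (adjusted p = 0.664) in ARID1B-KO. Its exons overlap those of AKAP9. TM7SF2, a sterol C14-reductase, was at 60.7, 68.2 and 67.6 CPM in wild type with DMSO, 134.5, 157 and 137 in wild type with sorafenib, 105.5, 93.4 and 74.3 in ARID1B-KO with DMSO and 187, 169.5 and 117 in ARID1B-KO with sorafenib. Treatment groups did not overlap in either genotype, and knockout and wild type overlapped with sorafenib (0.14 ± 0.16, adjusted p = 0.552). In DMSO the genotype difference of TM7SF2 was 0.48 (adjusted p = 0.0444), a call lost in 13 of 21 alternatives. Exons of TM7SF2 overlap those of VPS51. The TM7SF2 values are sums over transcripts. Its 1722-base coding transcript TM7SF2-201 held 39.3 of 1773 counts in wild type with DMSO replicate 1. In wild type with sorafenib replicate 1 it held 286 of 3748. TM7SF2-214, annotated for nonsense-mediated decay, held 963 and 1550 counts in these libraries. Shorter transcripts, some of them coding, held counts too.

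MSMO1, the C4-methylsterol oxidase, was at 237, 259 and 255 CPM in wild type with DMSO, 445, 450.5 and 419 in wild type with sorafenib, 555, 495.5 and 421 in ARID1B-KO with DMSO and 851, 781 and 622 in ARID1B-KO with sorafenib. Its lowest knockout library with sorafenib was above every wild-type library, and wild type with sorafenib overlapped ARID1B-KO with DMSO. Sorafenib raised MSMO1 by 0.81 ± 0.13 (adjusted p = 0.00032) in wild type and 0.61 ± 0.13 (adjusted p = 0.00154) in ARID1B-KO, and the genotype difference with sorafenib was 0.78 ± 0.13 (adjusted p = 0.000676). NSDHL and HSD17B7 act on the same C4 position. NSDHL was at 47.3, 42.7 and 47.4 CPM in wild type with DMSO, 75.5, 76.5 and 73.01 in wild type with sorafenib, 68.6, 64.7 and 64.6 in ARID1B-KO with DMSO and 81.9, 74.5 and 65.4 in ARID1B-KO with sorafenib, so wild type with DMSO lay below all 9 other libraries, which overlapped except that ARID1B-KO with DMSO lay below wild type with sorafenib. Its sorafenib response was 0.71 ± 0.09 (adjusted p = 4.06e-05) in wild type and 0.17 ± 0.09 (adjusted p = 0.132) in ARID1B-KO. The genotype difference of NSDHL in DMSO was 0.53 (adjusted p = 0.000684), a call lost with the length offset (0.25, adjusted p = 0.221).

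HSD17B7 was at 38.6, 39.6 and 35.8 CPM in wild type with DMSO, 61.9, 53.7 and 59.99 in wild type with sorafenib, 51.2, 56.96 and 60.2 in ARID1B-KO with DMSO and 72.9, 72.00 and 77.9 in ARID1B-KO with sorafenib, and it passed the test in all 4 comparisons, from 0.34 ± 0.08 (adjusted p = 0.00895) for genotype with sorafenib to 0.63 ± 0.08 (adjusted p = 0.000106) for sorafenib in wild type. With the length offset the genotype difference of HSD17B7 with sorafenib was 0.19 (adjusted p = 0.193). A pseudogene, HSD17B7P2, held 39.6 to 244 counts a library, or 9.77% of the HSD17B7 counts, and reads that fit both were divided by Salmon. EBP, the sterol isomerase, was at 88.3, 82.3 and 79.2 CPM in wild type with DMSO, 109, 124 and 116 in wild type with sorafenib, 148, 153 and 132.5 in ARID1B-KO with DMSO and 203, 193 and 164.5 in ARID1B-KO with sorafenib. All 6 knockout libraries exceeded all 6 wild-type libraries, and EBP was called in all 4 comparisons, with a genotype difference of 0.80 ± 0.10 (adjusted p = 6.17e-05) in DMSO and 0.68 ± 0.10 (adjusted p = 0.000222) with sorafenib. SC5D, the C5-desaturase, also had all knockout libraries above all wild-type ones, at 239.8 to 371 against 169 to 219.8 CPM, with a genotype difference of 0.58 ± 0.12 (adjusted p = 0.00257) in DMSO and 0.62 ± 0.12 (adjusted p = 0.00168) with sorafenib. Both SC5D calls were lost with the length offset (0.47, adjusted p = 0.0705 and 0.43, adjusted p = 0.096). Exons of EBP overlap those of a protein-coding gene that has no symbol.

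DHCR7 makes the final reduction in one branch of the pathway, and the direction of its genotype difference depended on the scale. By counts it was at 247, 269 and 268 CPM in wild type with DMSO, 401, 481 and 390.2 in wild type with sorafenib, 420.0, 411 and 304 in ARID1B-KO with DMSO and 709.9, 582 and 406 in ARID1B-KO with sorafenib, a difference of 0.53 ± 0.18 (adjusted p = 0.043) in DMSO. Of 21 alternatives, 11 lost this genotype call in DMSO and 2 changed its direction. Per length the level of DHCR7 was 137 ± 17.6 TPM in wild type with DMSO and 122 ± 22.7 TPM in ARID1B-KO with DMSO. With the length offset the log2 difference was -0.23 ± 0.29 (adjusted p = 0.64). The 579-base transcript DHCR7-207 was at 57.7 to 74.9 TPM in wild type with DMSO and at 0 in all 3 ARID1B-KO libraries with DMSO. Sorafenib responses of DHCR7 were 0.70 ± 0.18 (adjusted p = 0.00922) in wild type and 0.58 ± 0.18 (adjusted p = 0.0183) in ARID1B-KO. Both calls were lost with the length offset (0.76, adjusted p = 0.0889 and 0.74, adjusted p = 0.0752), and that in ARID1B-KO also without ARID1B-KO with DMSO replicate 3 or ARID1B-KO with sorafenib replicate 1 or 2.

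**Figure D3:**
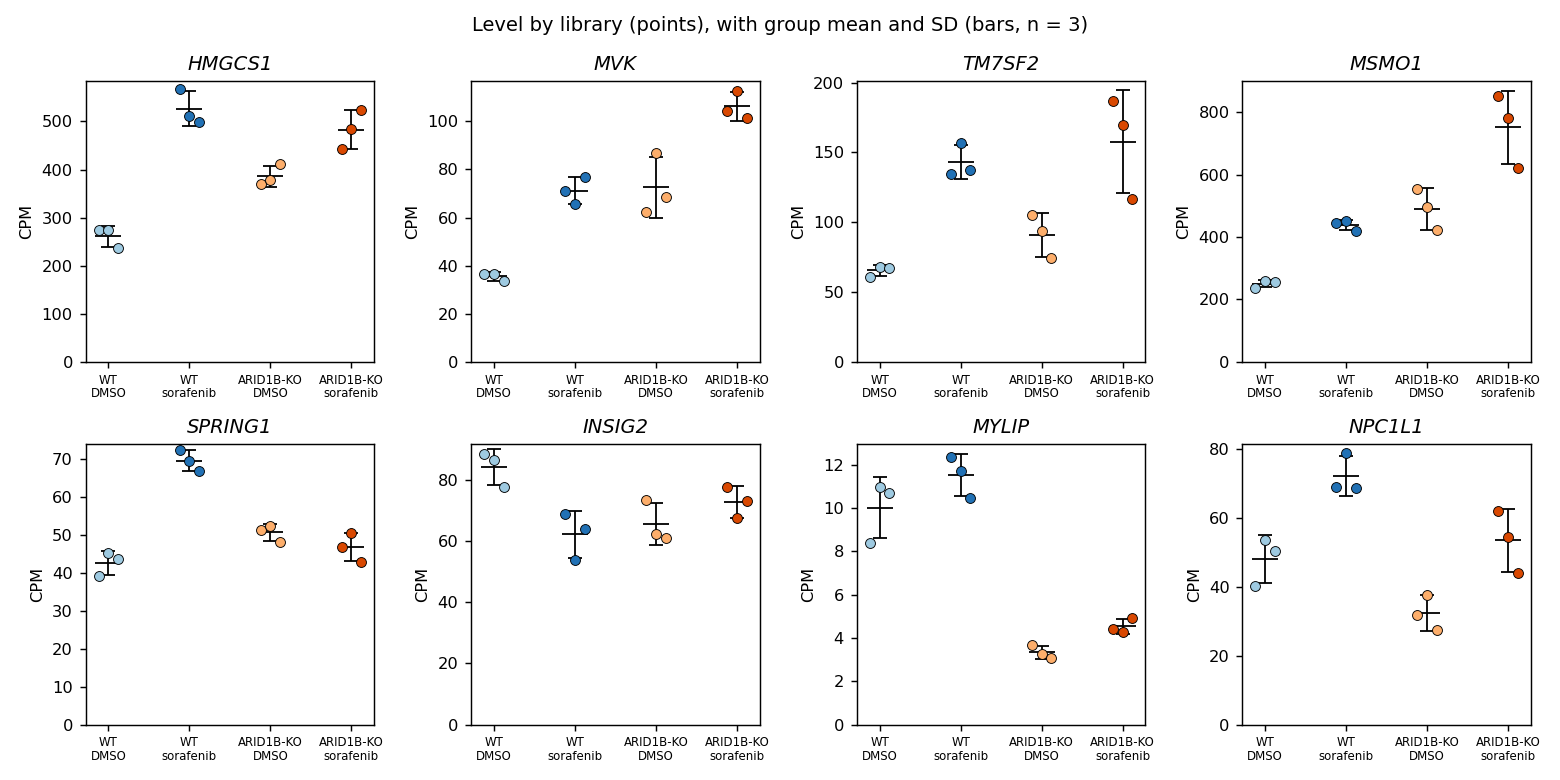
CPM (y axis, from 0) in each library (points) of the 4 groups (x axis), with group mean and SD (bars, n = 3), for 8 genes. HMGCS1, MVK, TM7SF2 and MSMO1 are lowest in wild type with DMSO, SPRING1 is highest in wild type with sorafenib at 66.8 to 72.4 CPM, and MYLIP lies at or under 4.94 CPM in all 6 knockout libraries.

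Few regulators of SREBP passed the test. Of 5 tested, 2 rose and 1 fell with sorafenib in wild type (17.5% and 18% of all genes) and 1 rose in ARID1B-KO (23%). In DMSO 1 was higher and 1 lower in ARID1B-KO (14.3% and 13.5%), and with sorafenib 1 was lower (13.8%). Counts of 1 in 5 are near these shares and show nothing about the regulators as a group. SREBF2, the gene of SREBP2, was at 213, 252 and 257 CPM in wild type with DMSO, 311.5, 380.0 and 323 in wild type with sorafenib, 257.5, 235 and 186 in ARID1B-KO with DMSO and 395, 334 and 252 in ARID1B-KO with sorafenib. It rose with sorafenib by 0.49 ± 0.16 (adjusted p = 0.032) in wild type and 0.53 ± 0.16 (adjusted p = 0.017) in ARID1B-KO, and its genotype differences were -0.09 ± 0.16 (adjusted p = 0.727) in DMSO and -0.05 ± 0.16 (adjusted p = 0.863) with sorafenib. Both sorafenib calls of SREBF2 were lost with the length offset (0.42, adjusted p = 0.313 and 0.27, adjusted p = 0.486). In wild type the call was also lost without DMSO replicate 1 or 2 or sorafenib replicate 2 or 3. In ARID1B-KO the call was also lost without DMSO replicate 3 or sorafenib replicate 1. SREBF1, whose protein SREBP1 favours fatty acid synthesis genes, was called in none of the 4 comparisons, with values from -0.35 ± 0.13 (genotype in DMSO, adjusted p = 0.0593) to 0.03 ± 0.13. In DMSO the SREBF1 libraries of ARID1B-KO lay below those of wild type without overlap, and 8 of 21 alternatives called this difference. Among these was the length offset (-0.82 ± 0.21, adjusted p = 0.021). Exons of SREBF1 overlap those of RAI1. SCAP, the escort of SREBP2, ranged from 47.7 to 118 CPM with an SE of 0.30 in each comparison, and was called in none. Per length SCAP was at 25.4 to 51.6 TPM in wild type with DMSO and at 16.46, 22.78 and 16.85 TPM in ARID1B-KO with DMSO, without overlap. It was at 35.1, 12.6 and 9.96 TPM in ARID1B-KO with sorafenib, so its libraries spread widely within a group. Its log2 genotype difference in DMSO ran from -1.16 to -0.03 over the alternatives, and none of them called it.

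SPRING1, a Golgi protein needed for SREBP cleavage, was at 39.2, 45.2 and 43.5 CPM in wild type with DMSO, 72.4, 69.4 and 66.8 in wild type with sorafenib, 51.2, 52.4 and 48.2 in ARID1B-KO with DMSO and 46.8, 50.4 and 42.96 in ARID1B-KO with sorafenib. Its 3 libraries of wild type with sorafenib stood above all 9 others. Sorafenib raised it by 0.71 ± 0.08 (adjusted p = 3.03e-05) in wild type, and the response in ARID1B-KO was -0.12 ± 0.08 (adjusted p = 0.272). The genotype difference was 0.25 ± 0.08 (adjusted p = 0.0396) in DMSO, a call lost when any of 9 of the 12 libraries was left out, and -0.57 ± 0.08 (adjusted p = 0.000263) with sorafenib. With the length offset these were 0.06 (adjusted p = 0.838) and -0.51 (adjusted p = 0.0725), and neither was called.

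INSIG2, which retains SCAP in the endoplasmic reticulum, was at 88.7, 86.5 and 77.6 CPM in wild type with DMSO, 68.8, 53.9 and 64.05 in wild type with sorafenib, 73.5, 62.4 and 61.1 in ARID1B-KO with DMSO and 77.9, 67.5 and 73.1 in ARID1B-KO with sorafenib. The 3 libraries of wild type with DMSO were above those of wild type with sorafenib (-0.44 ± 0.11, adjusted p = 0.00614) and above those of ARID1B-KO with DMSO (-0.36 ± 0.11, adjusted p = 0.0228). The genotype call of INSIG2 was lost with the length offset (-0.34, adjusted p = 0.0585) and without replicate 1 or 2 of wild type with DMSO or replicate 2 or 3 of ARID1B-KO with DMSO. In ARID1B-KO the sorafenib value was 0.15 ± 0.11 (adjusted p = 0.27), and the test of the difference between responses gave 0.59 ± 0.15 (adjusted p = 0.0805). INSIG1, the other INSIG gene and a textbook SREBP target, held 23 counts over the 12 libraries, from 0 to 7 a library with 5 at 0, over the 6 transcripts matched to it. Whether its reads were given to transcripts that were not matched, or were missed by the transcript set the submitters used, was not tested. The counts are therefore not read as absence of INSIG1, and no fold change is given.

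The 4 genes of uptake, transport and turnover went in both directions between genotypes. With sorafenib 3 rose in wild type and 4 in ARID1B-KO, against 17.5% and 23% of all genes. In ARID1B-KO 1 was higher and 2 were lower under each treatment, against 14.3% and 13.5% of all genes in DMSO and 13.2% and 13.8% with sorafenib. STARD4, a cytosolic sterol carrier, was at 52.3, 55.5 and 53.2 CPM in wild type with DMSO, 77.9, 74.4 and 78.6 in wild type with sorafenib, 51.6, 62.04 and 62.9 in ARID1B-KO with DMSO and 78.99, 86.4 and 98.9 in ARID1B-KO with sorafenib, and rose with sorafenib by 0.52 ± 0.10 (adjusted p = 0.00105) in wild type and 0.58 ± 0.10 (adjusted p = 0.000317) in ARID1B-KO. NPC1L1, the sterol importer blocked by ezetimibe, was at 40.3, 53.6 and 50.2 CPM in wild type with DMSO, 68.8, 78.9 and 68.7 in wild type with sorafenib, 31.9, 37.6 and 27.4 in ARID1B-KO with DMSO and 61.95, 54.4 and 43.9 in ARID1B-KO with sorafenib. Sorafenib raised NPC1L1 by 0.59 ± 0.15 (adjusted p = 0.00735) and 0.73 ± 0.15 (adjusted p = 0.00156), yet its genotype difference was -0.57 ± 0.15 (adjusted p = 0.0128) in DMSO and -0.43 ± 0.15 (adjusted p = 0.0441) with sorafenib, and both genotype calls were lost with the length offset (adjusted p = 0.0518 and 0.107). The call in DMSO was also lost without wild type with DMSO replicate 2 or ARID1B-KO with DMSO replicate 3, and that with sorafenib in 13 of 21 alternatives.

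MYLIP, a ubiquitin ligase that marks lipoprotein receptors for degradation and is a target of the sterol receptor LXR rather than of SREBP2, was at 8.39, 10.9 and 10.7 CPM in wild type with DMSO, 12.4, 11.7 and 10.5 in wild type with sorafenib, 3.66, 3.28 and 3.08 in ARID1B-KO with DMSO and 4.42, 4.26 and 4.94 in ARID1B-KO with sorafenib. All 6 knockout libraries lay below all 6 wild-type libraries, -1.58 ± 0.15 (adjusted p = 5.92e-06) in DMSO and -1.34 ± 0.14 (adjusted p = 2.24e-05) with sorafenib. Those were the furthest negative genotype differences of the set, at a low level of 3.46 ± 0.443 TPM in wild type with DMSO. TMEM97, a partner of the lysosomal cholesterol transporter NPC1, was at 131, 134 and 125 CPM in wild type with DMSO, 221.5, 212 and 204 in wild type with sorafenib, 216, 212 and 177 in ARID1B-KO with DMSO and 284, 277 and 234.5 in ARID1B-KO with sorafenib and was called higher in all 4 comparisons, from 0.32 ± 0.10 (adjusted p = 0.0287) for genotype with sorafenib to 0.71 ± 0.10 (adjusted p = 0.000137) for sorafenib in wild type. The genotype call of TMEM97 with sorafenib was lost in 8 of 21 alternatives, among them the length offset (adjusted p = 0.141) and the fits without any 1 replicate of wild type with sorafenib or replicate 1 or 2 of ARID1B-KO with sorafenib. Its sorafenib call in ARID1B-KO was lost with the offset (0.32, adjusted p = 0.08). Exons of TMEM97 overlap those of IFT20.

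The difference between the sorafenib responses of the genotypes was tested as an interaction, ARID1B-KO minus wild type. Across all genes 0.835% were called, 0.374% as higher and 0.46% as lower. In the set none was higher by edgeR and 2 were lower, SPRING1 (-0.82 ± 0.12, adjusted p = 0.0136) and HMGCS1 (-0.69 ± 0.14, adjusted p = 0.0438). At an unadjusted p under 0.05 there were 8, of which INSIG2 was higher and HMGCS1, MVD, MVK, NSDHL, PMVK, SPRING1 and TMEM97 lower. The share of all genes under that unadjusted p was not counted, so these 8 cannot be set against it. DESeq2 called more of all genes than edgeR, among them INSIG2 higher and HMGCS1, NSDHL and SPRING1 lower. The median of the 27 values was -0.19, against -0.01 over all genes. The 8 genes called with sorafenib in wild type and not in ARID1B-KO (PMVK, IDI1, FDPS, ACAT2, FDFT1, CYP51A1, NSDHL and SPRING1) were not shown to differ between genotypes, with the exception of SPRING1. Closest to the threshold were NSDHL (-0.55 ± 0.12, adjusted p = 0.0531) and INSIG2. HMGCS1 lost its interaction call in 16 of 20 other settings, and SPRING1 in 3 of 20, among them the length offset (-0.57, adjusted p = 0.42) and the fit without wild type with sorafenib replicate 2 (adjusted p = 0.0551).

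Some libraries were the lowest or highest of their group for many of the genes under both treatments. In ARID1B-KO replicate 3 held the lowest CPM for 14 of 27 genes, SQLE, MSMO1, DHCR7, SREBF2 and SCAP among them, against 20.5% of all genes, and replicate 1 the highest for 11, against 14.4%. In wild type replicate 2 held the highest for 9, MVD, SQLE and MSMO1 among them, against 10.8%. Replicate 3 of ARID1B-KO was also the highest for 6 genes, a share near the 22.3% of all genes. Without both replicate 3 libraries of ARID1B-KO, an alternative chosen after seeing the data, 15 genes in place of 16 rose with sorafenib in ARID1B-KO, 17 as before were higher in ARID1B-KO with DMSO and 12 in place of 9 with sorafenib. SQLE, CYP51A1, TM7SF2 and DHCR7 then passed the test for genotype with sorafenib, and NPC1L1 no longer did (-0.29, adjusted p = 0.121). LSS lost both its calls, MYLIP its sorafenib call in ARID1B-KO (adjusted p = 0.16), INSIG2 its genotype call in DMSO (adjusted p = 0.0765) and HMGCS1 its interaction call (adjusted p = 0.0544). NSDHL with sorafenib in ARID1B-KO (adjusted p = 0.0453) and SC5D with sorafenib in wild type (adjusted p = 0.0134) gained one.

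Per length the set spanned a wide range of levels. In wild type with DMSO the highest were FDPS at 365 ± 54.6 TPM, ACAT2 at 299 ± 24.3 and MSMO1 at 292 ± 28.7 (mean ± SD, n = 3), and FDPS overlapped the others within its spread. These sums take in every transcript of a gene, coding or not. In replicate 1 of that group the coding ACAT2-201 was at 16.8 TPM. ACAT2-202 and ACAT2-203, without a defined coding sequence, were at 143 and 165. The retained-intron transcript FDPS-215 held 164.5 of 414 TPM of FDPS there, and the coding MSMO1-201 held 258 of 262 TPM of MSMO1. MSMO1 ranked first in the 3 other groups, at 513 ± 22.3 TPM in wild type with sorafenib, 577 ± 59.1 in ARID1B-KO with DMSO and 824 ± 77.6 in ARID1B-KO with sorafenib. The lowest of the genes tested in every group was MYLIP, and the next was NPC1L1 in 3 groups and PMVK in wild type with sorafenib. SREBF2 itself was at 53.7 ± 10.6 TPM in wild type with DMSO and ranked 17 of 28.

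**Figure D4:**
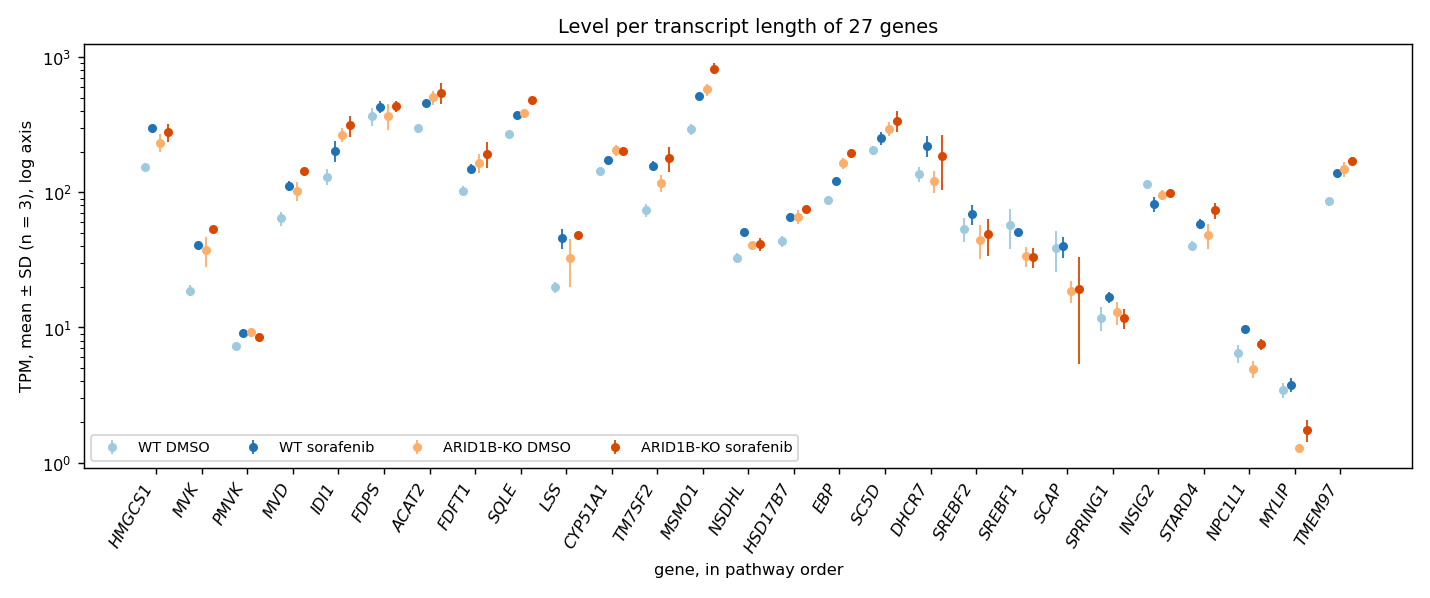
Mean TPM (y axis, log scale; bars ± SD, n = 3) of 27 genes in pathway order (x axis) in the 4 groups; INSIG1, near 0, is left out. MSMO1 reaches 824 TPM in ARID1B-KO with sorafenib, and MYLIP is lowest in each group.

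Other lists of the pathway were described by the same counts. Of 11 genes of the isoprenoid branch, which uses farnesyl pyrophosphate for ubiquinone, dolichol and protein prenylation, none rose and 3 fell with sorafenib in wild type, and 1 rose and 4 fell in ARID1B-KO, with median log2 fold changes of -0.18 and -0.19 against -0.01 and 0.01 over all genes. Over all genes 18% were called lower in wild type and 23.7% in ARID1B-KO. RABGGTB, a subunit of the Rab prenylation enzyme, fell by 0.90 on the log2 scale in wild type, and NUS1, a subunit of the dolichol synthase, changed by -0.59 ± 0.08 (adjusted p = 9.84e-05) in wild type and -0.87 ± 0.08 (adjusted p = 2.65e-06) in ARID1B-KO.

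Sterol efflux genes, most of them LXR targets, rose with sorafenib too, 4 of 6 in wild type (median 0.41) and 5 of 6 in ARID1B-KO (median 0.68). Over all genes 17.5% and 23% were called higher, with medians of -0.01 and 0.01. ABCG5 and ABCG8 together export sterol into bile. ABCG8 changed by 1.08 ± 0.16 (adjusted p = 0.000181) in wild type and 1.26 ± 0.16 (adjusted p = 3.35e-05) in ARID1B-KO, and ABCG5 by 0.56 ± 0.18 (adjusted p = 0.0265) and 1.43 ± 0.17 (adjusted p = 3.1e-05). With sorafenib 4 of the 6 were higher in ARID1B-KO (13.2% of all genes), ABCG5 by 1.58 ± 0.17 (adjusted p = 3.93e-05), and SMPDL3A was the one gene of the list with a called interaction (0.73 ± 0.15, adjusted p = 0.0438).

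Of 10 genes of cholesterol trafficking and esterification tested, 1 rose and 3 fell with sorafenib in wild type (17.5% and 18% of all genes), and 2 rose and 2 fell in ARID1B-KO (23% and 23.7%), with medians of 0.04 and 0.19. In ARID1B-KO none was higher and 4 were lower with DMSO (14.3% and 13.5%; median -0.28), and 1 was higher and 3 were lower with sorafenib (13.2% and 13.8%; median -0.14). The sorafenib counts are not far from the shares over all genes. NPC2, a lysosomal sterol carrier, rose by 0.66 ± 0.11 (adjusted p = 0.000419) in wild type and 1.01 ± 0.11 (adjusted p = 8.78e-06) in ARID1B-KO. SOAT2, which esterifies cholesterol in hepatocytes, was lower in ARID1B-KO with DMSO (-1.37 ± 0.14, adjusted p = 1.06e-05) and had a called interaction (0.92 ± 0.19, adjusted p = 0.0438). GRAMD1A, a sterol transporter at membrane contacts, had a genotype difference of -1.05 ± 0.13 (adjusted p = 6.54e-05) in DMSO and -1.38 ± 0.13 (adjusted p = 9.89e-06) with sorafenib. Of 9 lipogenic genes known as SREBP1 targets, 4 rose and none fell with sorafenib in wild type (17.5% and 18% of all genes), with a median of 0.48. In ARID1B-KO 2 rose and 2 fell (median 0.13), near the share over all genes (23% and 23.7%). ACSS2, which makes acetyl-CoA from acetate, rose by 1.77 ± 0.08 (adjusted p = 1.02e-08) in wild type, above every gene of the set called in that comparison, and by 1.33 ± 0.08 (adjusted p = 8.14e-08) in ARID1B-KO.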

How the data were processed

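Messenger RNA of 12 HepG2 libraries was measured, 3 in each of 4 groups taken from the sample titles. Each library has 1 Salmon table deposited by the authors, which per the file headers gives an estimated count, a length, an effective length and a TPM to each of 177456 transcripts. The deposited estimated counts are not normalized (10.2% of values above 0 are whole within 1e-06), and the TPM deposited by the authors are scaled within each library. Salmon (no version), DESeq2 1.46.0 and GRCh38 are named, per the submitters' processing notes. Strand and bias settings are not given in the sources used here.

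Transcripts were matched by identifier to GENCODE 44, 165533 of them (93.3%). The rest, with 2.87% to 3.20% of counts, were left out. Estimated counts were summed per gene and rounded. All 12 libraries entered 1 edgeR 4.0.16 quasi-likelihood fit (R 4.3.3; TMM, filterByExpr, robust, 4 group means), checked on simulated data. Every adjusted p is from this edgeR test, by Benjamini-Hochberg over 12821 genes, and every fold change is log2 ± SE. CPM compares libraries within a gene, TPM summed per gene compares genes. Alternatives were other scaling, filter and tool (DESeq2 1.42.0), a replicate block, an offset for effective transcript length, each library left out, and fits without mitochondrial genes or with only 2 groups. The genes of the set and the lists were chosen with earlier results of these data known. All genes of the set are named, and from the other lists genes with the smallest adjusted p in a comparison. The list of SREBP processing and sterol sensing is not reported here.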

Additional observations from a re-analysis of the deposited data

Results flagged for a closer look

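In 4 genes of the set and the lists the response to sorafenib differed between genotypes by the interaction test of edgeR. Of all genes tested 0.835% were called by it. The response in ARID1B-KO minus that in wild type was -0.82 for SPRING1 (adjusted p = 0.0136), -0.69 for HMGCS1 (adjusted p = 0.0438), 0.92 for SOAT2 (adjusted p = 0.0438) and 0.73 for SMPDL3A (adjusted p = 0.0438), on the log2 scale. SOAT2 fell with sorafenib in wild type (-0.63 ± 0.13, adjusted p = 0.00246). HMGCS1 lost its interaction call in 16 of 20 other settings and SPRING1 in 3 of 20. The calls of SOAT2 and SMPDL3A were not followed through these settings.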

How the results depend on the processing

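Of the log2 fold changes of the 27 genes under the alternatives, 1 changed direction from a called value, DHCR7 for genotype in DMSO. It was at -0.23 with the length offset and -0.27 with the replicate block and the offset together. The cause of this change of direction was not tested. The length offset called 2867 genes with sorafenib in wild type, 2189 for genotype in DMSO, 2046 for genotype with sorafenib and 2 for the interaction, in place of 4543, 3563, 3463 and 107. Joined to the replicate block, in a fit chosen after seeing the data, it called 2677, 3832 (sorafenib in ARID1B-KO, in place of 5982), 1914, 1854 and 2. For genotype with sorafenib, 3 genes of the set were higher and 1 lower with the offset, and 4 and 1 with offset and block. With only the 2 groups compared, 10 of the set rose with sorafenib in ARID1B-KO. The interaction was the least stable: 578 genes were called by DESeq2, 19 with the replicate block and 29 without replicate 3 of both knockout groups. Of the set, 1 was higher by DESeq2, and 1 was lower without the filter, 1 with the replicate block, 1 without both libraries of replicate 3, 0 with the offset and 0 with offset and block; the cause was not tested. Leaving out 1 library in turn gave 5 to 138 genes and 0 to 2 of the set lower for the interaction, and 1 to 4 of the set lower for genotype in DMSO (1 without wild type with DMSO replicate 2 and 1 without ARID1B-KO with DMSO replicate 3). Without mitochondrially encoded transcripts the summed TPM were 3504, 5195, 4860 and 6034 in the order of the groups. These means set wild type with sorafenib further above ARID1B-KO with DMSO than the full sums did. DESeq2 size factors in place of TMM shifted the median of all genes by at most 0.0174. Same-numbered libraries did not deviate together in every pair (correlations of -0.118 to 0.184), so the numbers are not taken as pairs; in wild type each library correlated best with its own number, at 0.0502 to 0.084, a hint from the data only. The replicate block changed no other count of the set by over 1.5 times.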
